A study of Homo sapiens with 12 samples.

Results

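Knockdowns of a pair of partner splicing factors were set directly against each other here: 3 libraries of HEK293 cells treated with siRNA against RBM17 and 3 libraries treated with siRNA against U2SURP. They were chosen by their siRNA label and make up 6 of the 12 libraries of the series, which also holds 3 CHERP knockdown and 3 control libraries. HEK293 is a line of human embryonic kidney cells; the source field of every library reads HEK293 and the cell line field reads HEK293T, and all were grown in the same serum-containing medium. The siRNAs against RBM17 and U2SURP are SMARTpool ON-TARGETplus mixtures, whereas the control label names a single non-targeting siRNA, #3. No time after transfection is given, and the labels do not say whether the 3 libraries of a group came from separate cultures, so every p-value below rests on variation among 3 libraries a group, and that variation may be technical. Because the control libraries take no part in the contrast, a difference here says how far the knockdowns stand apart from each other; the control mean is printed beside a gene only as a level measured in the same way.

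RBM17 (also called SPF45), U2SURP (SR140) and CHERP are proteins that bind one another and associate with the U2 snRNP, the spliceosome particle that recognises the branch point near the 3' end of an intron. RBM17 carries a UHM domain, which docks onto the U2 snRNP protein SF3B1, and a G-patch, a motif that binds DEAH-box helicases. U2SURP and CHERP carry SURP domains, which are found in splicing factors that act around the branch point. Loss of a U2-associated factor is known to change which exons and introns are kept; counts per gene, which are the values used here, do not show such changes.

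The targeted genes were measured first. RBM17 RNA (chr10:6088987-6117457, GRCh38) stood at 26.4, 25.3 and 26.5 CPM in the RBM17 knockdown libraries and 119.6, 119 and 121 CPM in the U2SURP knockdown libraries. All 3 RBM17 knockdown libraries lay far below every U2SURP knockdown library, with a log2 difference (RBM17 minus U2SURP knockdown, here and throughout) of -2.20 ± 0.0443 (SE) and adjusted p = 8.34e-14 in edgeR's quasi-likelihood test with Benjamini-Hochberg adjustment over all genes. U2SURP RNA (chr3:142964497-143060546) stood at 509, 511 and 488 CPM in the RBM17 knockdown libraries and 146, 142 and 135 CPM in the U2SURP knockdown libraries, and the groups were again far apart, by 1.83 ± 0.0472 (adjusted p = 2.12e-12). The control libraries held 110.3 ± 2.38 CPM of RBM17 and 451 ± 30.8 CPM of U2SURP (SD, n = 3). RBM17 was thus low in the libraries labelled for it and U2SURP in those labelled for it, while the other pool's libraries lay nearer the control. Levels are given in CPM, counts relative to library size, scaled by TMM factors.

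CHERP, the partner that neither pool targets, stood at 69.1, 73.1 and 74.6 CPM in the RBM17 knockdown libraries and 57.3, 59.6 and 60.3 CPM in the U2SURP knockdown libraries. It was higher in each RBM17 knockdown library than in any U2SURP knockdown library, by 0.29 ± 0.0458 (adjusted p = 8.71e-05), and its control mean was 58.7 ± 1.49 CPM. The plot of the targeted genes by library shows these levels in all 12 libraries.

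**Figure D1:**
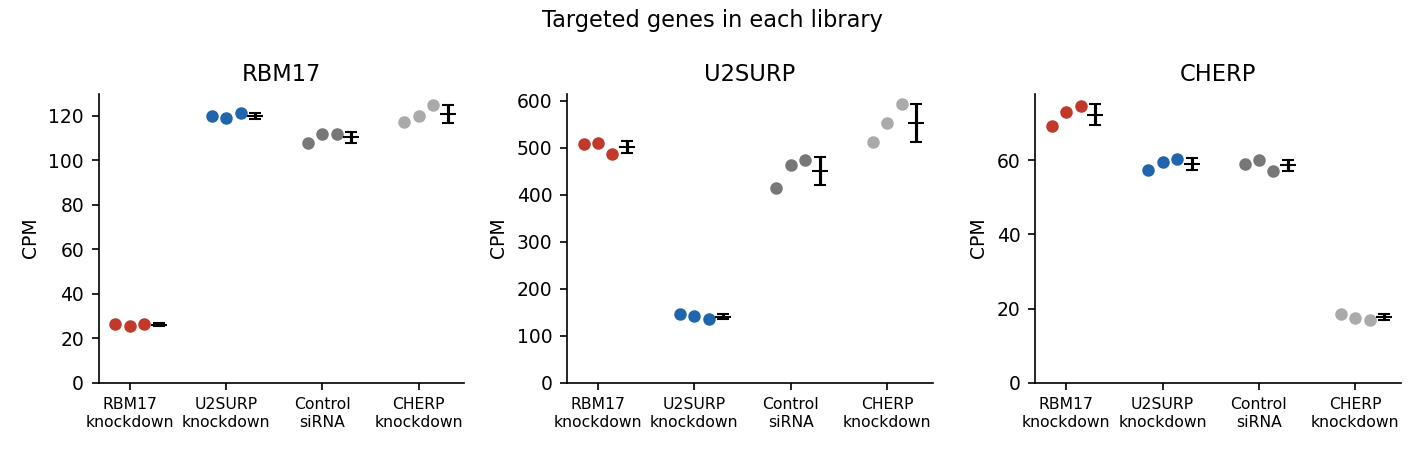
CPM of RBM17, U2SURP and CHERP in each library of the 4 groups (points), with the group mean and SD in black. RBM17 is near 26 CPM only in its own knockdown, U2SURP is lowest in its own knockdown, and CHERP is lowest in its own knockdown.

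The 6 libraries held 276335754 to 320986785 counts on genes, and the first principal component of the tested genes took 57.0% of the variance and separated the groups. Markers of embryonic kidney and of HEK293, among them VIM, PAX2, NES and NEFM, summed to 1138 to 1241 CPM after RBM17 knockdown and 957 to 1001 CPM after U2SURP knockdown. Their sums were far above those of blood (3.27 to 4.52 CPM) and endothelial markers (1.77 to 1.95 CPM) over the 6 libraries. The library numbers in the titles run in separate blocks by group, so a difference that goes with the library block and one that goes with the siRNA cannot be told apart. In RNA from whole cultures, fewer cells of a type and less RNA per cell cannot be told apart either.

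The knockdowns differed widely. Of 27005 genes tested, 12834 (47.5%) passed an adjusted p of 0.05, 6833 (25.3%) of them higher and 6001 (22.2%) lower after RBM17 knockdown. Most of these differences were small, with a median absolute log2 difference of 0.44 among called genes. The libraries of the groups did not overlap for 15105 genes (55.9%). At least 2-fold differences were called for 1984 genes (7.35%), of which 520 (1.93%) were higher and 1464 (5.42%) lower. The split into higher and lower depends on the scaling: upper-quartile scaling shifted the median of all genes by -0.10 on the log2 scale and gave 4919 higher and 8115 lower genes. Directions of small differences below are therefore relative to TMM, under which the median over all genes was -0.03, while protein-coding genes had a median of 0.08 (-0.02 under upper-quartile scaling).

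Gene class and level moved with direction. Among 15927 protein-coding genes 38.3% were higher and 20.8% lower, against 7.06% and 24.7% of 5708 long non-coding genes and 7.09% and 24.1% of 3834 pseudogenes. Of the 1464 genes called lower by at least 2-fold, 1222 had a mean under 1 CPM, and genes at that level had a median of -0.27. The RBM17 knockdown libraries also detected fewer genes, 35648 to 37005 with a count against 37578 to 37797; the part of this in the low-level differences was not tested. From 5 CPM upward the order turned. At 5 to 20 CPM 37.2% of 3427 genes were higher and 26% lower (median 0.06). At 20 to 100 CPM 47.9% of 5906 genes were higher and 18% lower (median 0.12). Above 100 CPM 1189 of 2292 genes (51.9%) were higher and 451 (19.7%) lower, with a median of 0.13. The plot of difference against level shows this tilt together with the gene groups described next. Called counts of those groups are to be read beside the shares of protein-coding genes and the shares by level.

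**Figure D2:**
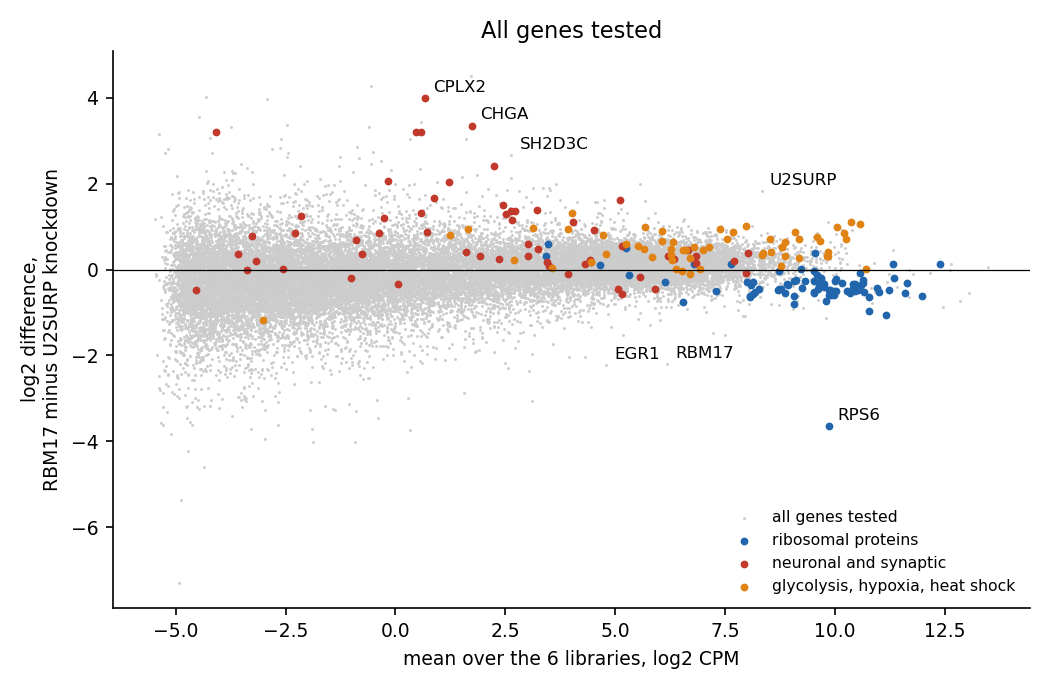
Log2 difference (RBM17 minus U2SURP knockdown) against mean log2 CPM of the 6 libraries for each tested gene. Ribosomal protein genes (blue) lie mostly below 0 at high levels, neuronal and synaptic genes (red) reach up to 3.99, and glycolysis, hypoxia and heat shock genes (orange) lie mostly above 0.

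Genes of the translation apparatus stood on different sides by list: most ribosomal protein RNAs and host RNAs of snoRNAs were lower after RBM17 knockdown than after U2SURP knockdown, and most listed ribosome biogenesis genes were higher. Ribosomal proteins build the small and large subunits, their mRNAs are among the most abundant in a growing cell, and most of these mRNAs begin with a terminal oligopyrimidine (TOP) tract, a C followed by a run of C and T at the very start. TOP mRNAs are known to be regulated as a group by mTOR signalling and the RNA-binding protein LARP1. To show what such a start looks like, the 40 bases before and the 20 bases from the RefSeq start (GRCh38.p14) are printed for 6 genes that were lower and 4 that were higher, picked after their values were seen, with the run from the first base in capitals where it holds a C and at least 4 more pyrimidines:
RPS6: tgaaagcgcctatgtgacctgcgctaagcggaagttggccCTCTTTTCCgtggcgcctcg
RPL13A: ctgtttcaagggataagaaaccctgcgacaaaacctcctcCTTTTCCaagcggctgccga
EEF2: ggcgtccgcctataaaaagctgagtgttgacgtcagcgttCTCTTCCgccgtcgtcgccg
EIF4B: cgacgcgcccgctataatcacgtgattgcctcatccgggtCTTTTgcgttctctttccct
RPL3: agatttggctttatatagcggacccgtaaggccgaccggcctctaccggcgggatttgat
SNHG5: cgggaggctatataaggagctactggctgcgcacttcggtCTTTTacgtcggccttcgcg
RPS10: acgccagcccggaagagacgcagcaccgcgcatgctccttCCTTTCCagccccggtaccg
RPS15: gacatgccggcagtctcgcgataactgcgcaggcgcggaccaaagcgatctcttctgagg
RPL26L1: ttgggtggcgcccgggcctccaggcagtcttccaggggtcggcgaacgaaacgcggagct
EIF4G2: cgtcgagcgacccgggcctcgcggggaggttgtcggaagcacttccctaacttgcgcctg

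These stretches lie at chr9:19380217-19380276 (RPS6, minus strand), chr19:49487568-49487627 (RPL13A, plus), chr19:3985444-3985503 (EEF2, minus), chr12:53006416-53006475 (EIF4B, plus), chr22:39319604-39319663 (RPL3, minus) and chr6:85678714-85678773 (SNHG5, minus). Those of the genes that were higher lie at chr6:34426050-34426109 (RPS10, minus), chr19:1438356-1438415 (RPS15, plus), chr5:172958689-172958748 (RPL26L1, plus) and chr11:10807977-10808036 (EIF4G2, minus). Of the 6 lower genes 5 start with an unbroken pyrimidine run of 5 to 9 bases, while the run of RPL3 stops at 4. Of the 4 higher genes RPS10 has a run of 7, and the other 3 have none that qualifies.

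RPS6, the small-subunit protein that S6 kinase phosphorylates, showed the largest difference of any protein-coding gene with a mean of at least 5 CPM. It stood at 144, 130.3 and 141 CPM in the RBM17 knockdown libraries and 1724, 1692 and 1803 CPM in the U2SURP knockdown libraries. Every RBM17 knockdown library was more than an order of magnitude below every U2SURP knockdown library, and the difference was -3.65 ± 0.0563 (adjusted p = 3.19e-15), or 12.6-fold. The control mean was 1294 CPM and the CHERP knockdown mean 1737 CPM, and of the 12 libraries only the 3 with RBM17 siRNA had the low level. RPS6 overlaps another tested gene, and no other ribosomal protein gene had a difference of this size: the next were RPL3, a large-subunit protein at the peptidyl transferase centre, and RPL13A.

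RPL3 stood at 1415, 1493 and 1561 CPM in the RBM17 knockdown libraries and 2964, 3080.4 and 3307 CPM in the U2SURP knockdown libraries. The groups were well separated, by -1.07 ± 0.056 (adjusted p = 2.59e-09), with a control mean of 2470.4 CPM between them. RPL13A, a large-subunit protein whose introns hold snoRNAs, stood at 1169.7, 1185 and 1201 CPM after RBM17 knockdown and 2299, 2220.5 and 2408 CPM after U2SURP knockdown (-0.96, adjusted p = 1.84e-09).

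Of 33 tested small-subunit genes 26 were lower and 2 higher (7 higher without RBM17 knockdown library 1; 78.8% and 6.06%, beside 20.8% and 38.3% of all protein-coding genes), with a median of -0.43. Of 50 large-subunit genes 43 were lower and 2 higher, with a median of -0.41. Lower members included RPS25 (-0.81), RPL37 (-0.73) and RPL22L1 (-0.76), and the 4 higher ones were RPS15 (0.37), RPS10 (0.32), RPL17 (0.59) and RPL26L1 (0.49). Summed over the family, ribosomal protein genes took 6.87, 7.23 and 7.45% of all counts in the RBM17 knockdown libraries and 9.92, 9.61 and 10.2% in the U2SURP knockdown libraries. The groups did not overlap, and the means were 7.18 ± 0.292% and 9.92 ± 0.309% (SD, n = 3 each; two-sided exact permutation p = 0.1, the smallest that 3 against 3 libraries can give). The control mean was 7.80 ± 0.331%. Ribosomal protein genes have many processed pseudogenes, and how shared reads were assigned to them is not given in the sources used here.

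Host RNAs of snoRNAs, whose introns release the small RNAs that guide ribosomal RNA modification, were lower for 18 of 29 and higher for 5 (median -0.37). SNHG5 stood at 80.2, 77.2 and 79.6 CPM in the RBM17 knockdown libraries and 221, 214 and 229 CPM in the U2SURP knockdown libraries. Its groups did not overlap (-1.49 ± 0.0444, adjusted p = 1.11e-11). EPB41L4A-AS1 (-1.30), GAS5 (-0.90), EEF2 (-0.86), the elongation factor that moves the ribosome along the mRNA, and RACK1 (-0.65), a protein of the small subunit's head, were also lower. DANCR (0.66), NOP56 (0.37) and SNHG20 (0.37) were higher. TPT1 and NOP53, whose RNAs also start with a pyrimidine tract, were picked from among the lower genes with such a start. TPT1 had 368, 369 and 357 CPM after RBM17 knockdown and 689, 691 and 703 CPM after U2SURP knockdown (-0.93). NOP53, which takes part in assembling the large subunit, had a difference of -1.08. Of the 473 protein-coding genes at 5 CPM or more with such a start outside the ribosomal protein genes, 164 were lower and 153 higher.

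Initiation factors were split, 18 of 39 higher and 13 lower, with a median of 0.10 that fell to 0.00 under upper-quartile scaling. EIF4B, which aids the helicase EIF4A in unwinding mRNA, stood at 558, 558 and 558 CPM in the RBM17 knockdown libraries and 1179.6, 1272 and 1236 CPM in the U2SURP knockdown libraries. No library of one group came near the other (-1.14 ± 0.0467, adjusted p = 2.89e-10). Subunits of eIF3, the scaffold of the initiation complex, were among the lower ones: EIF3L (-1.07), EIF3F (-0.76) and EIF3E (-0.73). EIF4G2, a relative of the scaffold eIF4G that does not bind the cap-binding protein eIF4E, went the other way, with 1329, 1604 and 1566 CPM after RBM17 knockdown and 765, 811 and 796 CPM after U2SURP knockdown. All its RBM17 knockdown values exceeded the U2SURP knockdown values, by 0.92 ± 0.0637 (adjusted p = 3.29e-08), and EIF5A (0.65) and EIF5 (0.63) were higher as well.

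The start sequence was tabulated against the direction of the difference, after the values were seen and with no test. A first base C with at least 4 further C or T, read on the gene's own strand, was found in 712 of 14446 promoters matched to a tested gene (4.93%). It was present in 18 of 26 matched small-subunit genes, and of these 18 genes 15 were lower and 1 higher (median -0.51). Of the 8 without it 5 were lower and 1 higher (median -0.25). Among 41 matched large-subunit genes 26 had it (23 lower, none higher, median -0.46) and 15 did not (12 lower, 2 higher, median -0.34). Initiation factors divided by it: of 7 with such a start 6 were lower and 1 higher (median -0.31), and of 25 without it 15 were higher and 3 lower (median 0.29). snoRNA hosts with it numbered 12 (9 lower, none higher, median -0.42), and of the 15 without it 7 were lower and 5 higher (median -0.10). Beyond the ribosomal protein genes, the 473 protein-coding genes at 5 CPM or more with this start had 164 lower and 153 higher (median -0.01), beside 1481 lower and 4051 higher of 8439 without it (median 0.12). The RefSeq start may not be the start used in these cells, and RPL3 counts as one without the tract. The plot of differences by start sequence shows the 4 groups.

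**Figure D3:**
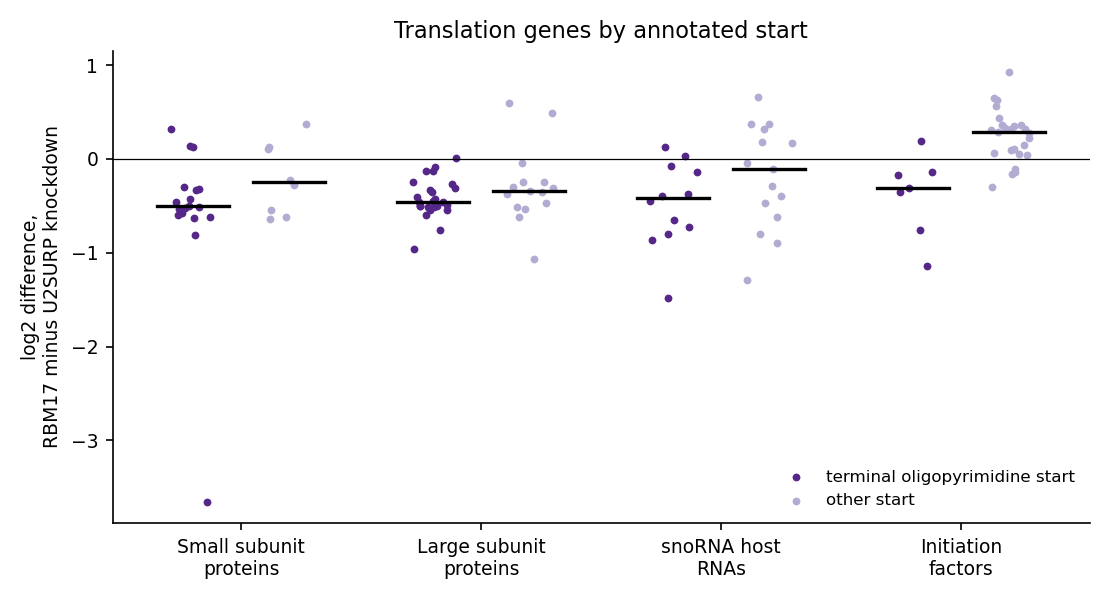
Log2 difference (RBM17 minus U2SURP knockdown) of small-subunit, large-subunit, snoRNA host and initiation factor genes, each split by whether the RefSeq start has a terminal oligopyrimidine tract; points are genes and bars medians. In initiation factors the medians are -0.31 with and 0.29 without the tract.

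Of 32 ribosome biogenesis genes 27 (84.4%) were higher and 1 (3.12%), NPM1 (-0.29), was lower (median 0.34). NCL, the nucleolar protein nucleolin, had 1560.1, 1879 and 1851 CPM after RBM17 knockdown and 912, 932 and 963 CPM after U2SURP knockdown. The groups did not overlap (0.91 ± 0.0641), and its control mean was 1101 CPM. NHP2, a box H/ACA snoRNP protein (1.00), RRP9 (0.86) and UTP20 (0.77), both of the small-subunit processome, were higher too. Among aminoacyl-tRNA synthetases 14 of 24 (58.3%) were higher and 4 (16.7%) lower (median 0.23). Both lists are to be read beside 38.3% higher and 20.8% lower of all protein-coding genes. Of all genes above 100 CPM 51.9% were higher and 19.7% lower, and the synthetase shares lay near these.

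Many, though not all, listed neuronal and synaptic genes were higher after RBM17 knockdown. Of 59 tested neuronal and synaptic genes 37 were higher and 5 lower (62.7% and 8.47%, median 0.45), beside 38.3% and 20.8% of all protein-coding genes. By at least 2-fold 20 of the 59 were higher and none lower, beside 372 higher and 529 lower of 15927 protein-coding genes. Of the 520 genes of any class higher by at least 2-fold, 308 had a mean under 1 CPM and 110 a mean of 1 to 5 CPM. In cells that are not neurons many such genes are kept silent by REST, which binds a sequence called RE1 and brings in corepressors. HEK293 cells are known to express some neuronal genes, NEFL and NEFM among them.

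Complexin 2 (CPLX2), which clamps and primes vesicle fusion, stood at 2.57, 3.2 and 3.15 CPM in the RBM17 knockdown libraries and 0.171, 0.214 and 0.171 CPM in the U2SURP knockdown libraries. Its lowest RBM17 knockdown library was far above the highest U2SURP knockdown library (3.99 ± 0.15, adjusted p = 1.26e-10), and the control mean was 0.156 CPM. Chromogranin A (CHGA), a core protein of dense secretory granules, stood at 5.28, 6.58 and 6.49 CPM in the RBM17 knockdown libraries and 0.437, 0.723 and 0.627 CPM in the U2SURP knockdown libraries. The groups were again separate (3.35 ± 0.16, adjusted p = 3.24e-09), and chromogranin B (CHGB) and secretogranin III (SCG3), which serve the same granules, differed by 3.20 and 2.03.

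The most abundant of the group with a 2-fold difference was SYP, synaptophysin, a membrane protein of synaptic vesicles, at 55.5, 51.6 and 50.1 CPM in the RBM17 knockdown libraries and 17.5, 17 and 16.7 CPM in the U2SURP knockdown libraries. The U2SURP knockdown values lay near the control mean of 20.6 CPM and the RBM17 knockdown values well above it, with a difference of 1.62 ± 0.052 (adjusted p = 2.74e-11). CPLX1, the sister of CPLX2, stood at 7.13, 8.81 and 7.96 CPM after RBM17 knockdown and 1.37, 1.62 and 1.49 CPM after U2SURP knockdown (2.41). SNAP25 (3.21), a SNARE of vesicle fusion, SYN1 (2.07), which tethers vesicles, UNC13A (1.30), which primes them, and RAB3C (1.36) were higher as well. So were GAP43 (1.67), a growth cone protein, AP3B2 (1.39) and the intermediate filament INA (1.11). Lower genes included MAPT, which encodes tau (-0.58), PCLO (-0.46), a scaffold of the presynaptic active zone, and VAMP2 (-0.44), the SNARE of the vesicle membrane, so components of the same release machinery stood on both sides.

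Several genes used to identify neurons were near 0 in both groups, with means of 0.0934 and 0.0724 CPM for DCX, 0.0362 and 0.0501 CPM for ELAVL3, and 0.17 and 0.171 CPM for TUBB3 after RBM17 and U2SURP knockdown. Others were present in both: RBFOX3, known as NeuN, had means of 4.46 and 4.74 CPM, and NEFM of 295 and 228 CPM. How reads shared between genes were counted is not given in the sources used here. A count near 0 therefore need not mean that a gene is silent. The plot of neuronal genes by library gives 12 of them with the control.

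**Figure D4:**
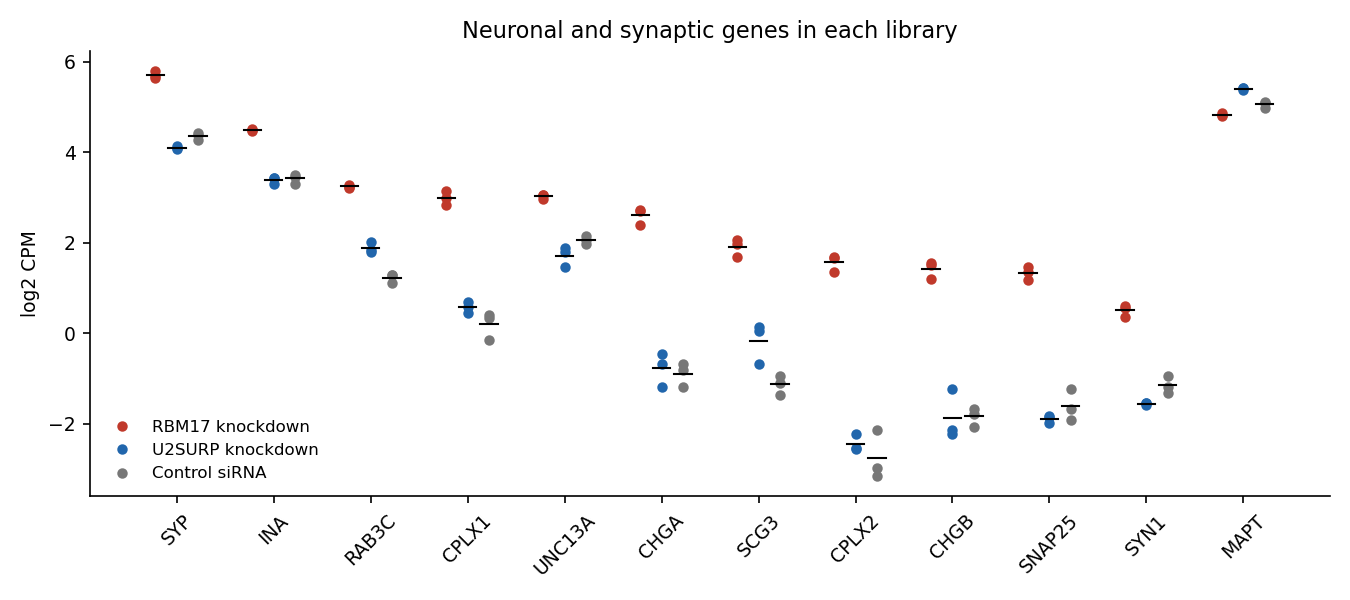
Log2 CPM of 12 neuronal and synaptic genes in each RBM17 knockdown, U2SURP knockdown and control library; bars are group means of log2 CPM. For CPLX2, CHGA, SYP and most others the RBM17 knockdown libraries lie above both other groups, and for MAPT they lie below the U2SURP knockdown libraries.

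REST itself stood at 59.2, 52.4 and 51.4 CPM after RBM17 knockdown and 60.8, 61 and 55.7 CPM after U2SURP knockdown (-0.12, adjusted p = 0.0949, not called here but called lower under 6 of 16 alternatives, with an adjusted p of 0.00299 without RBM17 knockdown library 1). Of 14 tested genes for REST and its corepressors 5 were higher and 3 lower, against 1 higher and 7 lower under upper-quartile scaling and 3 and 2 without RBM17 knockdown library 3; their median of 0.04 changed sign under upper-quartile scaling and 4 other alternatives. HDAC1, a deacetylase of the complex, was higher (0.37), and RCOR3 (-0.40) and CTDSP1 (-0.22) were lower.

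The RE1 half-site ttcagcacc was searched on both strands of the 300-base RefSeq promoters, again after the values were seen and with no test. It was found in 49 of 14446 promoters (0.339%) and in 3 of the 43 matched neuronal genes, all of which were higher. Over all matched genes, of the 49 with it 19 were higher and 11 lower (median 0.10). Of the 14397 without it 5077 were higher and 3031 lower (median 0.06). At 5 CPM or more, 10 of 24 protein-coding genes with it were higher and 6 lower (median 0.07). Of the 8955 without it at that level 4198 were higher and 1694 lower (median 0.11). The site (in capitals) is shown in its surroundings, at chr15:51681491-51681532 (SCG3, plus strand), chrX:47620062-47620107 (SYN1, minus) and chr19:17688325-17688368 (UNC13A, minus, where the site reads on the opposite strand):
SCG3: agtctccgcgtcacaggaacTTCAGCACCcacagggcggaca
SYN1: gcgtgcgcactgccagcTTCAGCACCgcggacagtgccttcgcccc
UNC13A: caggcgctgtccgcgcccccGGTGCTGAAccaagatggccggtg
The other 40 matched neuronal genes had no such letters in this window, and 24 of them were higher and 2 lower (median 0.45). A match is not a bound site, and full RE1 elements can lie outside the window.

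Voltage-gated ion channels, many of them also neuronal, were higher for 22 of 43 and lower for 8 (median 0.25). Their shares were 51.2% and 18.6%, beside 38.3% and 20.8% of all protein-coding genes. By at least 2-fold 10 were higher and 1 lower, beside 372 and 529 of 15927 protein-coding genes. Without U2SURP knockdown library 3 the counts of called channels were 20 and 5. KCNA2, a voltage-gated potassium channel of axons, stood at 4.26, 4.58 and 5.1 CPM in the RBM17 knockdown libraries and 0.954, 0.916 and 1.26 CPM in the U2SURP knockdown libraries. All RBM17 knockdown libraries were above all U2SURP knockdown libraries (2.15 ± 0.13, adjusted p = 7.21e-09), and the control mean was 1.29 CPM. SCN4A (1.65) and the sodium channel subunit SCN3B (1.34) were higher, and KCND1 (-1.25) was lower.

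Chaperone, glycolysis and proteasome genes were higher as groups after RBM17 knockdown. Cytosolic heat shock chaperones, which fold proteins and many of which are induced by the factor HSF1, were higher for 25 of 30 and lower for 1 (median 0.53). Their shares were 83.3% and 3.33%, beside 38.3% and 20.8% of all protein-coding genes. HSP90AA1, the inducible HSP90, stood at 1667, 1908 and 1874 CPM in the RBM17 knockdown libraries and 828, 881 and 808 CPM in the U2SURP knockdown libraries. The lowest RBM17 knockdown library lay well above the highest of the other group (1.11 ± 0.0581, adjusted p = 2.46e-09). FKBP4 (1.01), a co-chaperone of HSP90, DNAJB1 (0.98) and HSPH1 (0.95) were also higher. The lower member was the small heat shock protein CRYAB (-1.19, adjusted p = 0.0129), and without U2SURP knockdown library 3 its adjusted p was 0.074.

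Glycolysis and hypoxia genes were higher for 23 of 29 and lower for none, or 21 and 2 under upper-quartile scaling, 23 and 1 without RBM17 knockdown library 3 and 22 and 1 without U2SURP knockdown library 2 (median 0.53; 79.3% beside 38.3% of protein-coding genes). ENO1, enolase, stood at 1762, 2129 and 2238 CPM in the RBM17 knockdown libraries and 914, 1011 and 1019.6 CPM in the U2SURP knockdown libraries. The groups were separate, by 1.06 ± 0.0788 (adjusted p = 2.89e-07). LDHA (0.98), which makes lactate, PGK1 (0.88), PKM (0.85) and PFKFB4 (1.33), which sets the level of an allosteric activator of glycolysis, were higher, as was the glucose transporter SLC2A1 at 80, 80.7 and 98 CPM after RBM17 knockdown and 46.2, 45.6 and 48.1 CPM after U2SURP knockdown (0.89). GAPDH had a difference of 0.01 (adjusted p = 0.887), so not every gene of the list followed. The hypoxia target VEGFA differed by -0.11 (adjusted p = 0.0718) and was called lower under 7 of 16 alternatives, with an adjusted p of 0.0492 without RBM17 knockdown library 3 and of 0.0342 without U2SURP knockdown library 2.

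Proteasome subunits were higher for 28 of 31 (90.3%, beside 38.3% of all protein-coding genes), led by PSMB1 (0.70) and PSMD1 (0.57). PSMA2 was lower (-0.30), a call lost without RBM17 knockdown library 3 (adjusted p = 0.0939) or without U2SURP knockdown library 2 (adjusted p = 0.094). Nuclear genes for oxidative phosphorylation subunits were higher for 45 of 57 and lower for 3, or 37 and 5 under upper-quartile scaling (median 0.31). Complex I subunits stood at both ends, though at very different levels. NDUFB9 had 122, 137 and 126 CPM after RBM17 knockdown and 61, 58 and 56.9 CPM after U2SURP knockdown and was higher in every RBM17 knockdown library (1.13), while NDUFV2 had 1.22, 0.908 and 1.03 CPM after RBM17 knockdown and 2.03, 2.35 and 2.27 CPM after U2SURP knockdown and was lower in every one (-1.07). The low count of NDUFV2 may not cover all of its RNA, because the way shared reads were assigned is not given in the sources used here. NDUFB10 (0.78) and COX6A1 (0.77) were higher.

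Of the 13 mRNAs of the mitochondrial genome 1 was higher and 2 were lower, but 9 were lower under upper-quartile scaling and 4 higher with GC and length offsets. The share of mitochondrially encoded counts was 5.02, 4.92 and 4.64% after RBM17 knockdown and 5.08, 5.15 and 4.94% after U2SURP knockdown. These shares overlapped between groups (means 4.86 ± 0.195% and 5.06 ± 0.104%, SD, n = 3 each; two-sided exact permutation p = 0.2), and both lay below the control's 8.30 ± 0.41%. Within the mitochondrial genome MT-ND1 stood at 2913, 3096 and 2934 CPM after RBM17 knockdown and 2059.8, 2269 and 2176 CPM after U2SURP knockdown and MT-CYB at 2358, 2434 and 2236 CPM after RBM17 knockdown and 3095, 3128 and 3156 CPM after U2SURP knockdown. MT-ND1 was higher (0.46 ± 0.0522) and MT-CYB lower (-0.42 ± 0.0495) in every RBM17 knockdown library, and MT-ND2 was lower (-0.22).

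Mitosis genes were higher for 35 of 44 (29, with 3 lower, under upper-quartile scaling), among them BUB1 (0.77) and TPX2 (0.66), and the 1 lower gene was MKI67 (-0.17), whose adjusted p was 0.0665 without the library with the fewest genes in each group, which are RBM17 knockdown library 2 and U2SURP knockdown library 3. DNA replication genes had 10 higher and 11 lower of 39, against 4 and 17 under upper-quartile scaling; the higher count was 4, 5 and 4 without RBM17 knockdown library 2, RBM17 knockdown library 3 or U2SURP knockdown library 1. Called members included the licensing factor CDT1 (-0.94) and E2F2 (-0.74), which were lower, and GINS2 (0.53), which was higher. Cholesterol synthesis and uptake genes were higher for 16 of 25 and lower for 4 (median 0.28), and lysosome and autophagy genes for 19 of 32 and 7 (median 0.21). Kinesins, the motors of microtubule transport, were higher for 19 of 37 and lower for 4, but 12 and 11 under upper-quartile scaling. Extracellular matrix genes had 19 of 43 higher and 17 lower, and 12 and 20 under that scaling. Endoplasmic reticulum chaperones and unfolded protein response genes had 12 of 24 higher and 5 lower. The counts of these lists are to be read beside 38.3% higher and 20.8% lower of all protein-coding genes. At 20 to 100 CPM 47.9% of all genes were higher and 18% lower. The kinesins (51.4% higher) and the endoplasmic reticulum list (50% higher) lay near that level's share of higher genes. The plot of gene groups gives the members of 24 lists side by side.

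**Figure D5:**
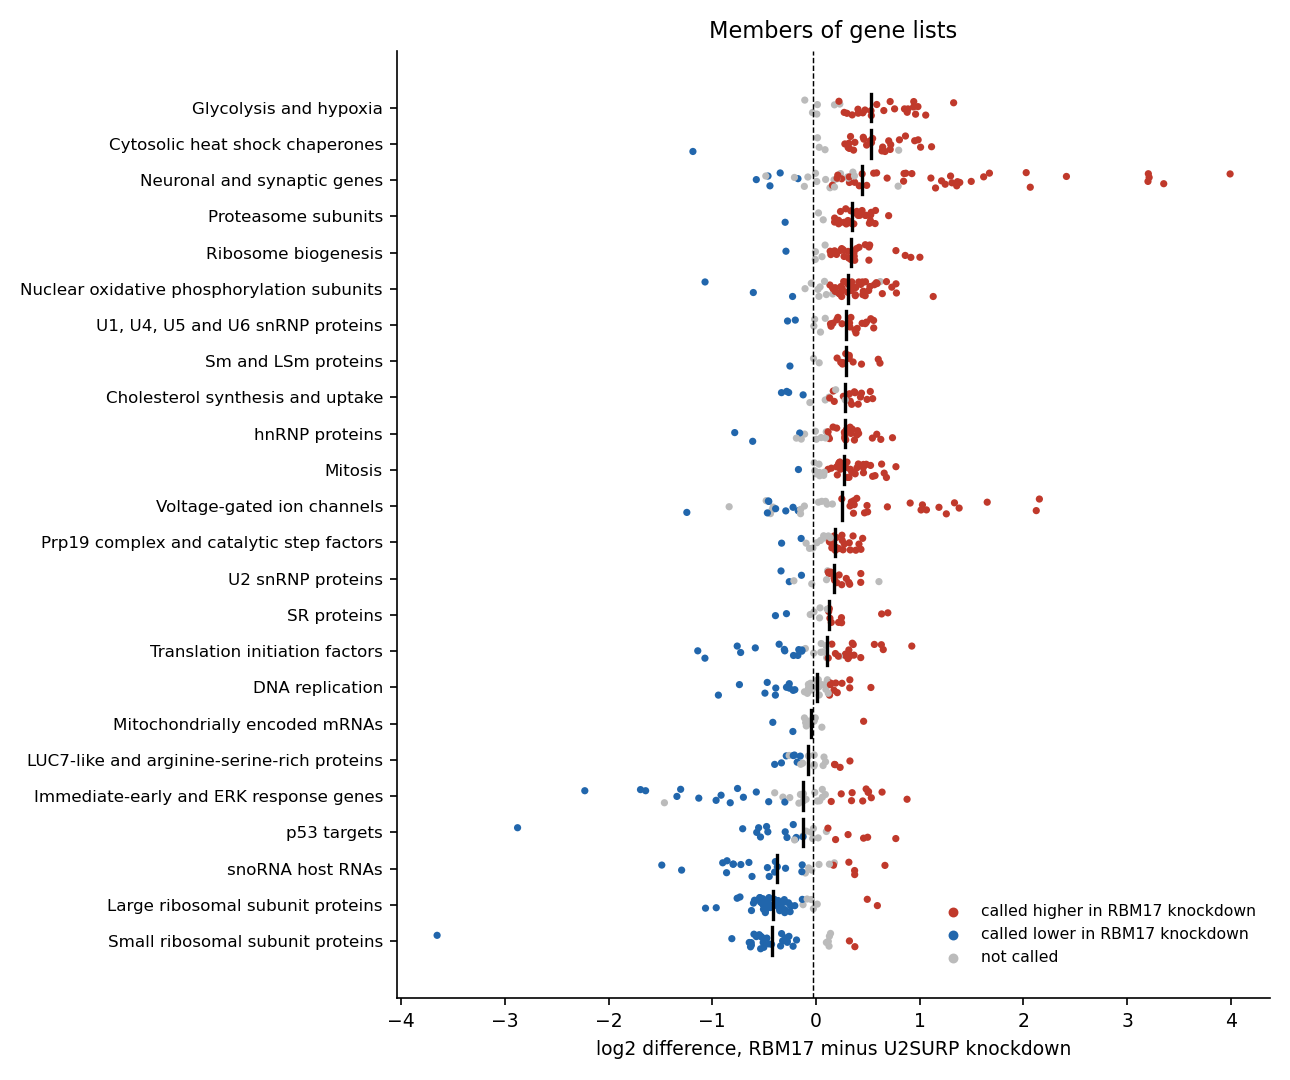
Log2 difference (RBM17 minus U2SURP knockdown) of each tested member of 24 gene lists, with called higher genes in red, called lower genes in blue and others in grey; black bars are list medians and the dashed line is the median of all tested genes. Medians run from -0.43 for small-subunit proteins to 0.53 for glycolysis and hypoxia.

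Splicing factor genes differed by small amounts. In several of their lists the balance of higher and lower genes depended on the scaling or on 1 library. Shares are to be read beside the 38.3% higher and 20.8% lower of all protein-coding genes. They are also to be read by level: 47.9% of all genes at 20 to 100 CPM were higher and 18% lower. Above 100 CPM the shares were 51.9% and 19.7%. Sm and LSm proteins, the rings around the spliceosomal RNAs, were higher for 12 of 15 and lower for 1, or 10 and 2 under upper-quartile scaling (median 0.29), led by SNRPG (0.62) and LSM4 (0.60), with LSM8 lower (-0.25). Proteins of the U1, U4, U5 and U6 particles were higher for 18 of 24. PRPF8, the U5 protein at the heart of the spliceosome, stood at 1061, 1247 and 1268 CPM in the RBM17 knockdown libraries and 780.2, 835 and 864 CPM in the U2SURP knockdown libraries. Its groups were separate (0.53 ± 0.0648, adjusted p = 8.91e-06), and SNRPC (0.56) and SNRNP40 (0.56) were higher by similar amounts.

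Proteins of the U2 snRNP, to which both targets bind, were higher for 13 of 21 and lower for 3, but 6 and 5 under upper-quartile scaling, 7 and 2 without RBM17 knockdown library 2 and 8 and 3 without RBM17 knockdown library 3. SNRPB2 (0.43) and DNAJC8 (0.43) were higher, and the helicases DDX39B (-0.34) and DDX46 (-0.26), which act when the U2 particle joins the intron, were lower. Of the 25 genes listed as partners, the targets included, 9 were higher and 4 lower (36% and 16%, near the share of all protein-coding genes). Under upper-quartile scaling 4 were higher and 9 lower, and the median of 0.09 became -0.03. Without RBM17 knockdown library 2 the counts were 5 and 2, without RBM17 library 3 they were 5 and 3, without U2SURP library 1 they were 9 and 2, and without U2SURP library 2 they were 5 and 5. DHX15, a helicase activated by G-patch proteins, stood at 279.5, 296 and 297 CPM in the RBM17 knockdown libraries and 214, 227 and 227 CPM in the U2SURP knockdown libraries. It was higher in each RBM17 knockdown library (0.38 ± 0.0458, adjusted p = 6.25e-06), as was CTNNBL1 (0.45), and the G-patch gene GPATCH8 was lower (-0.35).

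Regulators that bind pre-mRNA varied more. hnRNP genes were higher for 23 of 34 and lower for 3, or 18 and 6 under upper-quartile scaling, with HNRNPM (0.74), TAF15 (0.62) and HNRNPA2B1 (0.59) higher. HNRNPA1, a splicing repressor closely related to HNRNPA2B1, stood at 1279, 1392 and 1379 CPM in the RBM17 knockdown libraries and 2159.6, 2405 and 2409 CPM in the U2SURP knockdown libraries. It was lower in each RBM17 knockdown library (-0.78 ± 0.0562, adjusted p = 4.5e-08), with a control mean of 1738 CPM, and RBMX (-0.61) was lower too. HNRNPA1 has many processed pseudogenes.

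SR proteins, which mark exons, had 9 of 16 higher and 2 lower (56.2% and 12.5%), beside 51.9% and 19.7% of all genes above 100 CPM. SRSF12 (0.69) and SRSF9 (0.63) led the higher ones, and SRSF11 (-0.39) and SRRM1 (-0.28) were lower. Under upper-quartile scaling 5 were higher and 4 lower, and without RBM17 knockdown library 2 the counts were 5 and 2. Genes for LUC7-like and arginine-serine-rich proteins leaned the other way, 4 of 21 higher and 7 lower, or 2 and 13 under upper-quartile scaling, with NKTR (-0.40) and SREK1 (-0.33) lower. Among 52 RBM and tissue-specific regulators 21 were higher and 8 lower (40.4% and 15.4%, near the share of all protein-coding genes), or 16 and 13 under upper-quartile scaling, 18 and 5 without RBM17 knockdown library 2 and 19 and 4 without U2SURP knockdown library 1. The neuronal regulator NOVA2 had the largest increase, at 5.58, 5.9 and 6.13 CPM after RBM17 knockdown and 2.17, 2.76 and 2.98 CPM after U2SURP knockdown (1.16 ± 0.11). Splicing kinases were divided, 4 higher, with SRPK1 at 0.33, and 4 lower, with CLK1 at -0.24 and CLK4 at -0.30, of 18. Under upper-quartile scaling 2 kinase genes were higher and 10 lower, and the higher count was also 2 without RBM17 knockdown library 2 or 3 or U2SURP knockdown library 2, with 4, 5 and 6 lower. Factors of the Prp19 complex and the catalytic steps were higher for 19 of 30 and lower for 2, or 11 and 5 under upper-quartile scaling; the lower count was 1 without any 1 of RBM17 knockdown libraries 1 and 2 and U2SURP knockdown libraries 2 and 3.

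Genes of the growth factor response were lower after RBM17 knockdown in part. EGR1, an immediate-early transcription factor switched on by ERK, stood at 14.6, 6.03 and 8.51 CPM in the RBM17 knockdown libraries and 43.6, 45.5 and 47.8 CPM in the U2SURP knockdown libraries. No library of one group reached the other, although the RBM17 knockdown libraries spread widely among themselves (-2.23 ± 0.37, adjusted p = 0.00923), and the control mean was 55.1 CPM. EGR3 (-1.31), the ERK-induced factor ETV5 (-1.69), the feedback inhibitor SPRY4 (-1.64) and ARC (-1.34, adjusted p = 0.0095) were also lower over the 6 libraries, but with 1 library fewer their calls did not all hold. Without RBM17 knockdown library 3 the adjusted p was 0.126 for EGR3, 0.0755 for ETV5, 0.115 for SPRY4 and 0.054 for ARC. Without U2SURP knockdown library 1 it was 0.0855 for EGR3, 0.0628 for ETV5 and 0.085 for SPRY4, without library 2 0.0546 for SPRY4, and without library 3 0.0723, 0.0626 and 0.0809 for EGR3, ETV5 and SPRY4. FOS had a difference of -1.46 that was not called (adjusted p = 0.0505) but was called under 11 of 16 alternatives, all in the same direction; without RBM17 knockdown library 1 the adjusted p was 0.0418 and without library 2 0.00246. ETV1 (0.88), SPRED2 (0.53), SPRY1 (0.51) and JUN (0.35) were higher. Over the 41 genes 11 were higher and 14 lower (26.8% and 34.1%), or 10 and 7 without RBM17 knockdown library 3 and 11 and 9 without U2SURP knockdown library 3. Of all protein-coding genes 38.3% were higher and 20.8% lower, and of all genes at 1 to 5 CPM 23.4% and 35%.

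Genes of the stress lists stood on both sides. ATF4, the transcription factor of the integrated stress response, stood at 866, 941 and 976 CPM in the RBM17 knockdown libraries and 555, 515 and 569 CPM in the U2SURP knockdown libraries. It was higher in each RBM17 knockdown library (0.76 ± 0.0555). GDF15, a secreted factor induced by that response and by p53, stood at 0.605, 0.683 and 0.835 CPM in the RBM17 knockdown libraries and 3.12, 5.64 and 6.83 CPM in the U2SURP knockdown libraries. It was lower in each of them (-2.88 ± 0.33, adjusted p = 0.000666), and SLC7A11 (-0.86), ATF5 (-1.22) and PPP1R15A (-0.64) were lower as well. SESN2 (0.77) and PSPH (0.65) were higher, and of the 36 listed genes 14 were higher and 9 lower (38.9% and 25%, near the 38.3% and 20.8% of all protein-coding genes), or 12 and 15 under upper-quartile scaling. Of 27 p53 targets 13 (48.1%) were lower, among them CCNG1 (-0.71), MDM2 (-0.57) and CDKN1A (-0.30), and 6 (22.2%) higher, among them TIGAR (0.50). Interferon response genes had 4 of 27 higher and 10 lower (14.8% and 37%, median -0.10). Without RBM17 knockdown library 2 and U2SURP knockdown library 3 together 1 was higher and 5 were lower. Of all protein-coding genes 38.3% were higher and 20.8% lower, and of all genes at 1 to 5 CPM 23.4% and 35%.

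The largest increase among protein-coding genes at 5 CPM or more was that of SH2D3C, an adaptor of receptor signalling, at 11.6, 10.4 and 10.1 CPM in the RBM17 knockdown libraries and 2.11, 1.46 and 1.52 CPM in the U2SURP knockdown libraries. Its groups were far apart (2.66 ± 0.13, adjusted p = 3.49e-09), and its control mean was 3.68 CPM. EMILIN2, a matrix glycoprotein, stood at 67.8, 83.8 and 74.1 CPM in the RBM17 knockdown libraries and 20.4, 19.3 and 17.1 CPM in the U2SURP knockdown libraries. Every RBM17 knockdown library was above every U2SURP knockdown library (1.99 ± 0.0819) and above the control mean of 28.6 CPM.

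Other large increases included those of DPYSL4 (2.00), a collapsin response mediator, CLSTN2 (1.89), a synaptic calsyntenin, the guidance cue SEMA3C (1.89), SYT2 (1.70), a calcium sensor of transmitter release, and CAMKV (1.62). CARMIL2 (1.91), BICDL1 (1.86), the R-spondin receptor LGR5 (1.83), TMEM145 (1.72) and TMEM45A (1.63) were also among them.

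The largest decrease after that of RPS6, among protein-coding genes at 5 CPM or more, was that of TNXB, tenascin-X, at 3.28, 2.18 and 2.57 CPM in the RBM17 knockdown libraries and 15.2, 13.3 and 13.2 CPM in the U2SURP knockdown libraries. Its groups did not overlap (-2.37 ± 0.13), and its RefSeq start has the oligopyrimidine form described above. NUPR1, a stress-induced nuclear protein, stood at 7.21, 5.37 and 5.36 CPM in the RBM17 knockdown libraries and 22.6, 24.6 and 27 CPM in the U2SURP knockdown libraries. Here the U2SURP knockdown stood apart from the control mean of 6.2 CPM and the RBM17 knockdown near it, with a difference of -2.05 ± 0.11 (adjusted p = 1.96e-07). The same held for ASS1, argininosuccinate synthase of arginine synthesis, at 104, 86.9 and 92.3 CPM after RBM17 knockdown and 261, 270.0 and 279 CPM after U2SURP knockdown, with a control mean of 106 CPM and a difference of -1.52 ± 0.0594. DLEC1 (-2.17), VWCE (-1.73), AOC2 (-1.49), the bicarbonate transporter SLC4A5 (-1.45), the carbonic anhydrase CA14 (-1.38), the calcium pump ATP2A1 (-1.37) and the axonemal dynein DNAH17 (-1.34) were also among them. Counting long non-coding genes, 17 of the 36 picked for large differences overlap another tested gene; the libraries keep strand, but the strand setting of the counting is not given in the sources used here, so reads of overlapping genes may have been exchanged.

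Long non-coding RNAs took 1.71, 1.57 and 1.71% of counts after RBM17 knockdown and 2.25, 2.29 and 2.29% after U2SURP knockdown. The groups did not overlap (means 1.66 ± 0.0762% and 2.28 ± 0.0224%, SD, n = 3 each; two-sided exact permutation p = 0.1, the smallest possible), and the control mean was 2.80%. Their lower side was not confined to weak genes: of 13 with a mean over 100 CPM 12 were lower and none higher. These 13 include the snoRNA hosts SNHG5 (-1.49) and SNHG1 (-0.47), so the count in part repeats the snoRNA host result above. At 20 to 100 CPM 37 of 71 long non-coding genes were lower and 16 higher. By number of introns, 25.8% of those without introns were lower, 21.9% of those with 1 to 3, 32.4% of those with 4 to 9 and 43.8% (32 of 73, with none higher) of those with 10 or more. The share lower was also largest in the last of these classes among protein-coding genes, at 17.7%, 17.6%, 18.7% and 24.1% in the same order. Of protein-coding genes with 10 or more introns 37.4% were higher. Long non-coding genes were not split by introns and level together. Their share lower was 19.8% under 1 CPM and 52.1% at 20 to 100 CPM. ENSG00000264112, for which no symbol was matched and which had the largest decrease at 5 CPM or more without overlap between groups, stood at 8.67, 6.98 and 7.79 CPM in the RBM17 knockdown libraries and 32.9, 30.1 and 32.7 CPM in the U2SURP knockdown libraries. Its groups were separate (-2.03 ± 0.0732), and LINC02367 (-1.96), AATBC (-1.82) and LIPE-AS1 (-1.65) followed. Among those at 5 CPM or more without overlap between groups, the largest increases were in ZNF503-AS2 (1.85), ENSG00000253123 (1.57), ZNF232-AS1 (0.93) and MIR222HG (0.69), the host of a microRNA pair.

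In protein-coding genes at 5 CPM or more the median difference ran down with transcript length, from 0.22 in the shortest quartile of exonic length through 0.18 and 0.11 to 0.04 in the longest. Over all tested protein-coding genes, low ones included, the quartile medians were 0.10, 0.11, 0.09 and 0.04. In the shortest quartile at 5 CPM or more 59.8% of genes were higher and 12.9% lower, and in the longest 35.7% and 26.8%. These are descriptions over genes, which are not replicates, and offsets for GC content and length in the fit gave 5990 higher and 6758 lower genes over the whole table.

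Markers of the line and of other cell types were also set side by side. The called counts of these small lists are to be read beside 38.3% higher and 20.8% lower of all protein-coding genes. Embryonic kidney and HEK293 markers were higher for 15 of 17 and lower for 1, KRT18 (-0.20), with PAX2 (0.80), CDH2 (0.79) and EYA1 (0.70) higher. Of 6 tested differentiated kidney markers 4 were lower, among them KCNJ1 (-1.39), SLC12A1 (-1.55) and CUBN (-0.59), and 1 higher (median -0.52). The higher one, LRP2, the endocytic receptor megalin, stood at 146, 157 and 150.1 CPM after RBM17 knockdown and 87, 79.5 and 81.2 CPM after U2SURP knockdown (0.87) and made up nearly all of the list's summed level, 151 to 163 and 88.4 to 96.2 CPM. Fibroblast markers had 4 of 9 higher and 2 lower (44.4% and 22.2%, near the share of all protein-coding genes), COL3A1 at -1.60 among the latter. Their sums were 30.6 to 32.3 and 23.3 to 26.6 CPM. The lower count was 1 without RBM17 knockdown library 1 or 2 or U2SURP knockdown library 2 or 3. Epithelial markers had 2 of 8 higher and 1, CLDN4 (-0.72), lower (25% and 12.5%), with sums of 46.0 to 50.7 and 39.6 to 41.6 CPM. Of the epithelial markers 2 were lower without RBM17 knockdown library 1 or U2SURP knockdown library 3. Endothelial markers had 1 of 6 higher, the VEGF receptor KDR (2.86), and 2 lower, ENG (-0.89) and CLDN5 (-1.12; adjusted p = 0.0525 without U2SURP knockdown library 2), with a median of -0.89. All of these were near or under 1 CPM. The part of these differences in the neuronal, heat shock or ribosomal results was not tested.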

How the data were processed

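Poly(A) RNA was sequenced from HEK293 cells with a stranded Illumina kit, per the labels' protocols. The authors deposited 1 table of raw read counts per gene for each library. HISAT2 2.0.5, SAMtools, HTSeq and the build GRCh38 are named in the submitters' processing notes, without roles. Which annotation release and strand setting the counting used is not given in the sources used here.

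Of 60554 gene identifiers 56996 matched GENCODE 29, which gave class, position and exonic length, and current symbols were used. Counts of the 6 libraries were filtered by edgeR 4.0.16 (filterByExpr), scaled by TMM and tested with the robust quasi-likelihood F test, and p-values were adjusted by Benjamini-Hochberg over 27005 genes. CPM of the control and CHERP knockdown libraries were scaled to the same reference library. DESeq2 1.42.0, other scalings and filters, offsets for GC content and length, all 12 libraries in 1 fit and fits without each library were the alternatives. Shares of counts were compared with a two-sided exact permutation test. The fit was tested on simulated counts for 27009 genes with 200 changed; 89.6% of changes of 0.5 (log2) were recovered and 100% of changes of 1 and 2, with 7 unchanged genes called. The simulation used 1 common spread for all genes, and its changed genes all had at least 1 CPM. Few genes changed there, whereas 47.5% of genes were called in the data. It therefore does not cover low genes or so broad a difference. R 4.3.3, Python 3.11.15 and matplotlib 3.10.9 were used.

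The members and gene lists were chosen with earlier results of these data known. Genes named for size were the 14 protein-coding and 4 long non-coding genes with the largest called difference in each direction, at a mean of at least 5 CPM and without overlap between groups. From each list up to 3 called genes a direction were named by smallest p; lists of 20 genes or fewer and the partners could be named whole. All further genes named were chosen after their values were seen, and a few genes that fell under these rules are not reported here. RefSeq promoters span 250 bases before to 50 after a start.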

Additional observations from a re-analysis of the deposited data

How the results depend on the processing

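The median standard error was 0.116 on the log2 scale and 0.0534 for genes at 5 CPM or more, so low genes limit the precision. Over the alternatives of scaling, filter, test and left-out library, RBM17 ran from -2.30 to -2.17, U2SURP from 1.73 to 1.86 and CHERP from 0.18 to 0.33, each with its call. Leaving out 1 library gave 10885 to 13410 called genes, 5825 to 7074 higher, 5060 to 6336 lower and 1782 to 2352 at 2-fold or more. Without RBM17 knockdown library 2 and U2SURP knockdown library 3 together, an alternative chosen after seeing the data, 9099 genes were called. DESeq2 called 12644 genes. A mean of at least 1 CPM left 470 genes at 2-fold or more (164 higher, 306 lower) and protein-coding genes alone 940 (301 higher, 639 lower); fewer genes are tested there. Offsets for GC content and length reversed SCAF1 to -0.12, MT-ND3 to 0.15, MT-ND4L to 0.15 and MT-ND6 to 0.13, each called there and not called as reported; the cause was not tested. Library totals without a scaling factor gave 5689 higher and 6940 lower genes. Over up to 16 alternatives 90 of 412 genes followed changed call in at least 1. CRYAB, SPRY4, SYN1, SLC12A1 and COL3A1, given above without levels, had results in 15 of the 16. A gene with a mean under 1 CPM drops out of 1 alternative. No paired analysis was possible because the labels give no replicate numbers that tie an RBM17 knockdown library to a U2SURP knockdown library.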
